A study of Mus musculus with 6 samples.

Results

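The genes described here are the parts of the Wnt pathway that can be picked out by name: the Wnt ligands, their Frizzled receptors (Fzd) and coreceptors, the proteins that pass the signal on, its nuclear factors and its feedback genes. They were picked by symbol, with earlier results of these data known, and make up 51 of the 34718 genes in the count table, of which 28 had enough counts to be tested. Messenger RNA was sequenced from Hepa1-6, a mouse hepatoma line grown in culture, in 3 control libraries (shNC) and 3 libraries with knockdown of Zfp207 by short hairpin (shZfp207). Zfp207 is the mouse ZNF207, a zinc finger protein with a role at the mitotic spindle. The labels give neither the number of hairpins nor whether the cells were a clone or a pool, they tag the samples as tumor, and they do not say that replicates were separate cultures. P-values therefore measure the spread between these samples, possibly only technical, and an effect of a hairpin other than loss of Zfp207 cannot be told apart from it.

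Wnt proteins are secreted lipid-modified ligands that bind a Frizzled receptor together with Lrp5 or Lrp6. Binding recruits a Dishevelled protein (Dvl) and blocks the destruction complex, in which Axin and Apc hold beta-catenin so that casein kinase and Gsk3 phosphorylate it for degradation. Beta-catenin then enters the nucleus and binds TCF/LEF factors, and among the genes switched on are inhibitors of the pathway itself, such as Axin2, Nkd1, Rnf43 and Znrf3. In liver the pathway sets the gene expression of hepatocytes around the central vein, and activating changes in it are frequent in liver tumors.

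The libraries held 11933736 to 16248346 counts, and the members together took 0.195% to 0.261% of them. Zfp207 fell to 0.259 of its control level (log2 fold change -1.95 with SE 0.17, edgeR adjusted p = 0.00236). It had 140, 199 and 216 TMM-scaled CPM (counts scaled to the library size) in controls 1 to 3. After knockdown it had 48, 48.5 and 47.3, so that control replicate 1 was the lowest control, still above the knockdown libraries. Control replicate 1 stood apart from the other libraries: the share of mitochondrial transcripts was 10.5% there, 2.89% and 2.67% in the other controls and 5.6% to 6% after knockdown. The differences of single genes below are therefore given with and without it, and family sums by library. Of the hepatocyte and hepatoma markers, 9 of 9 had a count, and their summed level was 1767 to 2906 CPM (counts scaled to library size) in control and 4962 to 5281 CPM in knockdown libraries, with Ttr at 0 to 5 counts and Fga at 0 to 4 counts. Leukocyte markers summed to 0.617 to 0.862 and 3.55 to 4.07 CPM, with Cd3e and Cd8a at 0. Most of the leukocyte counts after knockdown came from Csf1r, with 2, 6 and 14 counts in controls 1 to 3 and 52, 48 and 45 after knockdown. Ptprc had 1, 1 and 0 and then 8, 5 and 5 counts, and Cd79a had 6, 2 and 0 and then 0, 2 and 2. Endothelial markers summed to 0.617 to 1.76 and 1.46 to 2.05 CPM. Of 6 fibroblast or stellate cell markers 5 had a count, and the list summed to 2020 to 2281 and 2683 to 2766 CPM, nearly all of it from Dcn, with Lrat at 0. The endothelial ranges overlapped between groups, the other 3 sums were higher after knockdown, and their part in the results was not tested.

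Most of the tested pathway genes had a higher level after knockdown, while beta-catenin itself (Ctnnb1) and Dvl2 were lower. Past the threshold of an edgeR adjusted p below 0.05, 9 members rose and 2 fell, 39.3% of the 28 tested. Over all 11975 genes tested, 20.6% passed, 9.92% upwards and 10.7% downwards. Those that rose were the ligand Wnt6, the receptors Fzd4, Fzd5 and Fzd7, the scaffolds Axin1 and Axin2, the R-spondin receptor Lgr5 and the inhibitors Rnf43 and Nkd1. The median log2 fold change of the tested members was 0.43, against -0.03 over all genes tested, and 25 of 28 members (89.3%) had a value above 0, against 47.3% of all genes.

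**Figure D1:**
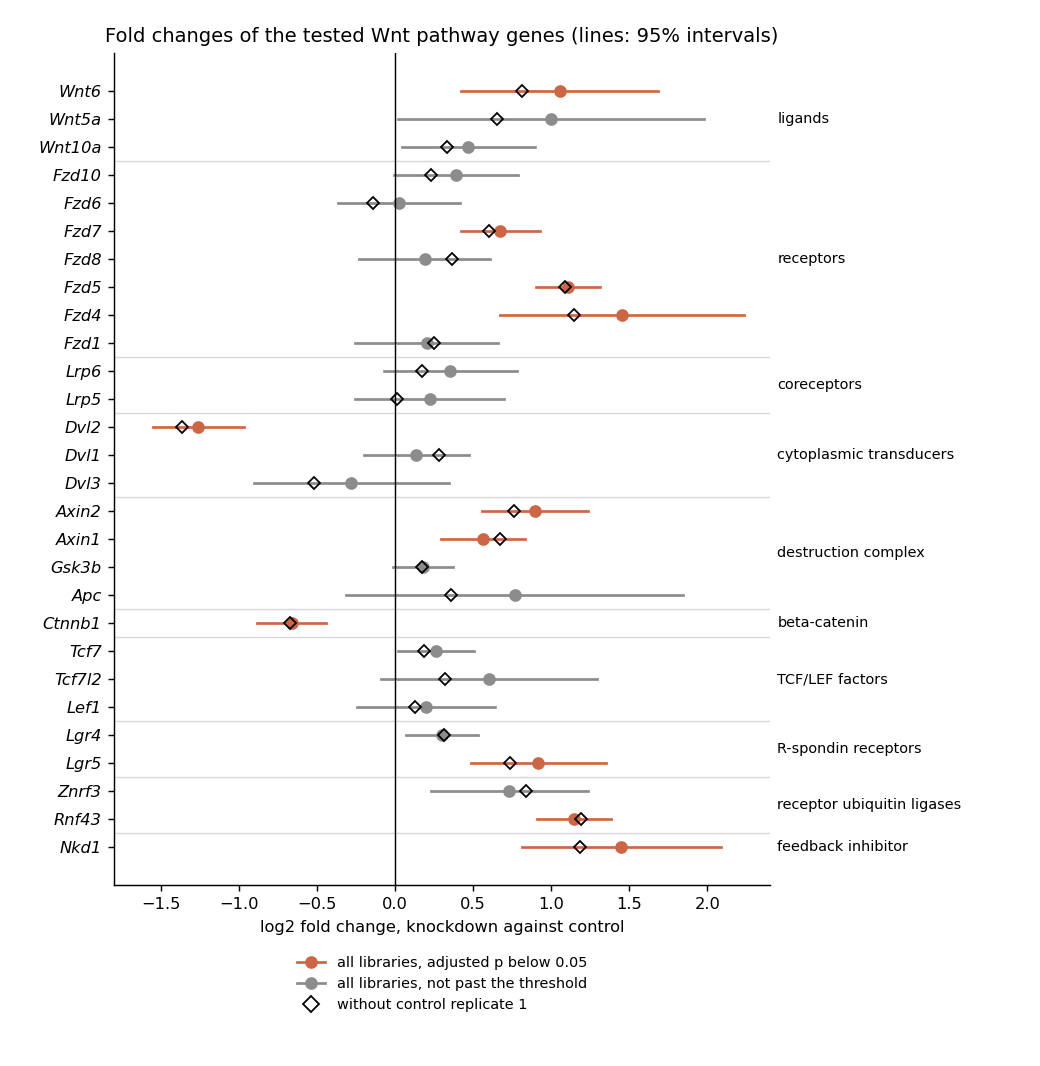
Log2 fold change of knockdown against control for the 28 tested Wnt pathway genes, ordered by role, in the fit of all 6 libraries (filled points, with 95% intervals, coloured when past the threshold) and in the fit without control replicate 1 (open diamonds). Filled points run from -1.26 for Dvl2 to 1.45 for Fzd4 and Nkd1, and only Ctnnb1, Dvl2 and Dvl3 lie below 0 in the fit of all libraries.

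Without control replicate 1, 20 members rose and 3 fell, but the share of all genes past the threshold grew as well, to 52.1% of 12108 genes, 26.1% upwards and 26.1% downwards. All 11 members called in the fit of all libraries were called there in the same direction, and 12 others were added. In single libraries the control and knockdown ranges did not overlap for 21 of the 28 tested members, 19 of them higher and 2 lower after knockdown. Over all tested genes 44.7% had no overlap, 22.3% higher and 22.4% lower. Fzd5, Dvl2 and Rnf43 were past the threshold in each of the 6 fits that left out 1 library.

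**Figure D2:**
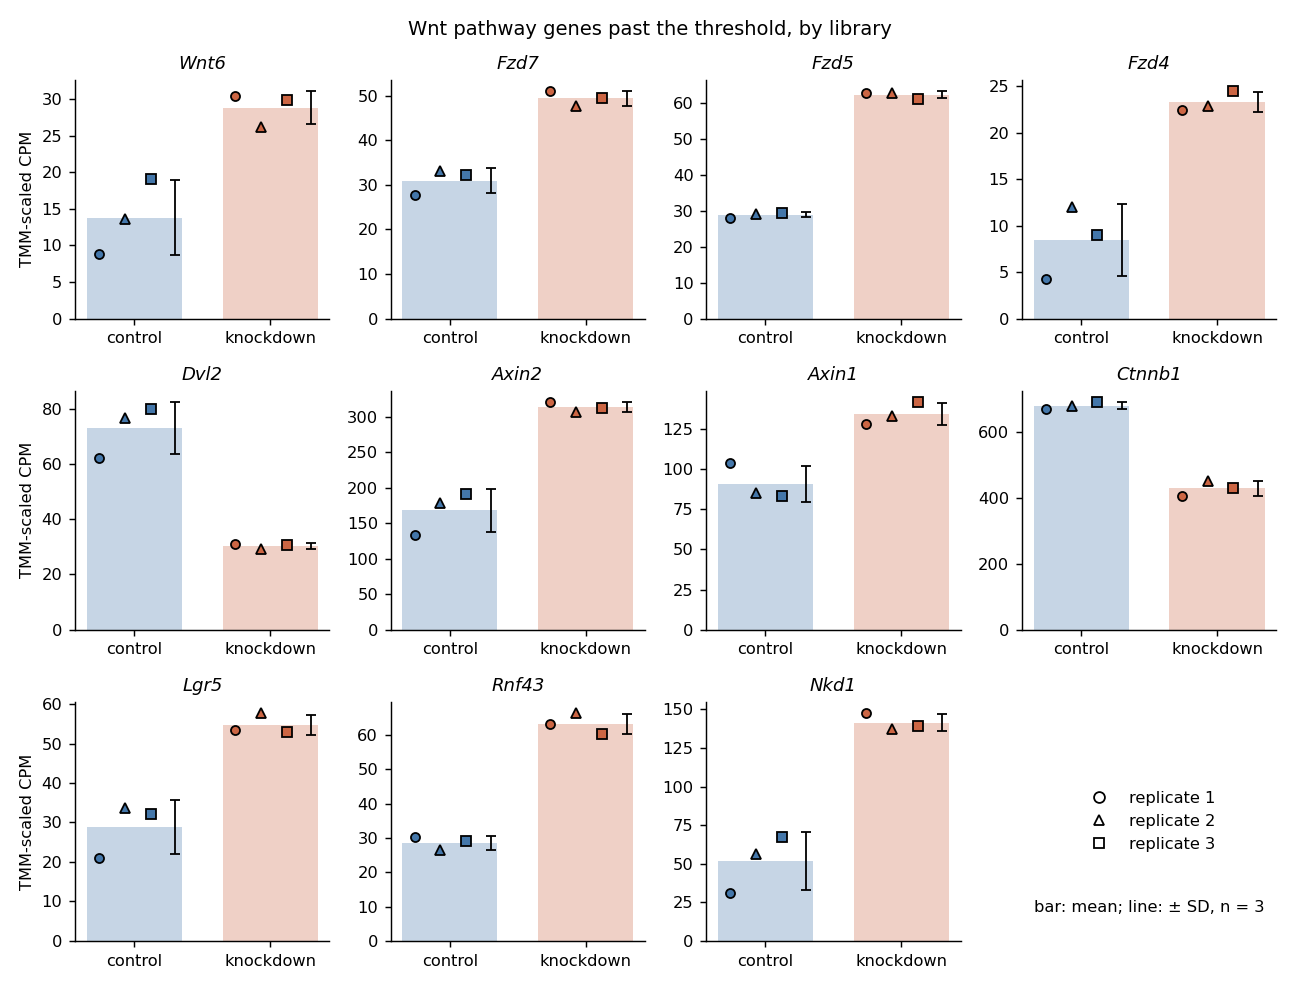
TMM-scaled CPM (counts scaled to the library size) of the 11 members past the threshold, by library, with bars at the group mean and lines at ± SD (n = 3). In every panel the control and knockdown points are separated, with Dvl2 and Ctnnb1 lower and the others higher after knockdown.

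The stretches before the start sites of some of these genes are shown because the members that changed include known targets of TCF/LEF factors, whose core motif can be read directly in the sequence. The 250 bases upstream of the annotated start come from RefSeq (GRCm38.p6), 5′ to 3′ on the gene's strand, for the scaffold and target Axin2, the receptors Fzd7 and Fzd5 and the signal transducer Dvl2. The motif searched was AACAAAG or ATCAAAG or TACAAAG or TTCAAAG on either strand, and capitals mark a match.
Axin2, chr11:108920099-108920348 (+ strand): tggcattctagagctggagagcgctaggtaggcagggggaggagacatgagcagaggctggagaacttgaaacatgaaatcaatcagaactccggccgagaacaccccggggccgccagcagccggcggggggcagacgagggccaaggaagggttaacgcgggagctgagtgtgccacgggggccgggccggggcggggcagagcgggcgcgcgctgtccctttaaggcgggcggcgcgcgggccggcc
Fzd7, chr1:59481897-59482146 (+ strand): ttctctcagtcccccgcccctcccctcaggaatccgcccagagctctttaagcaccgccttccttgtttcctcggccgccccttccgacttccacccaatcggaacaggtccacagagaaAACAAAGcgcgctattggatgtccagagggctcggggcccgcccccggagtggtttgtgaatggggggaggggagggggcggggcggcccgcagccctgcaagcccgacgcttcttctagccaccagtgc
Fzd5, chr1:64737751-64738000 (- strand): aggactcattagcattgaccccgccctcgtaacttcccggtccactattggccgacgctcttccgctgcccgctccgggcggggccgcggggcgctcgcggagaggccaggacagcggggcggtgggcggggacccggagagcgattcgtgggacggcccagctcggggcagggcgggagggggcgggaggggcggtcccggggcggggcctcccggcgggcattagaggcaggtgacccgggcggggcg
Dvl2, chr11:70000342-70000591 (+ strand): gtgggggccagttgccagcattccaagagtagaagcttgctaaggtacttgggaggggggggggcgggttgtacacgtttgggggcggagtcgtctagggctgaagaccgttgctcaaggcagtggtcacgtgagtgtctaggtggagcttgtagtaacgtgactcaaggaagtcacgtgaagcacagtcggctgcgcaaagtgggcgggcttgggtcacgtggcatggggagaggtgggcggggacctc
Fzd7 alone among these 4 held a match, AACAAAG, beginning 130 bases before the start. Axin2 and Fzd5, which rose, and Dvl2, which fell, had none in this window. A promoter was found in the RefSeq table for 35 of the 51 members, and 6 of them (17.1%) held a match in at least 1 window, against 16.8% of 27025 genes in the table. Among members with a promoter there, 1 of 7 that rose and 0 of 2 that fell held a match. GC content of the printed windows was 69.2% for Axin2, 65.2% for Fzd7, 76.4% for Fzd5 and 60.8% for Dvl2.

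Of the 19 Wnt ligand genes 3 could be tested, and Wnt6 was the 1 that rose, to 2.08 times its control level. Wnt6 (ENSMUSG00000033227, chromosome 1, 74771892 to 74785322) had 8.78, 13.6 and 19 CPM in shNC replicates 1 to 3 and 30.4, 26.2 and 29.9 CPM in shZfp207 replicates 1 to 3 (per-library CPM values of genes are TMM-scaled). Control replicate 1 was the lowest library and the groups did not overlap. The mean went from 13.8 ± 5.13 to 28.8 ± 2.27 CPM (SD, n = 3 each; log2 fold change 1.05 with SE 0.265, edgeR adjusted p = 0.035). In bulk RNA a change in the share of cells with a transcript and a change in RNA per cell cannot be told apart. Wnt5a, a ligand known mainly for signalling without beta-catenin, had 16.9, 58.8 and 36.5 CPM in the control libraries against 64.5, 91.7 and 68.2 CPM in the knockdown libraries. It had its lowest value in control replicate 1 as well, and the spread within the control group was wide, with no overlap between groups. Its difference of 1.00 on the log2 scale did not pass (SE 0.412, edgeR adjusted p = 0.134, 95% interval 0.02 to 1.98). Wnt10a, known as a ligand of the beta-catenin branch, had 7.29, 9.28 and 10.8 CPM in controls 1 to 3 and 13.6, 13 and 11.3 CPM after knockdown, without overlap but also short of the threshold (log2 fold change 0.47 with SE 0.179, edgeR adjusted p = 0.112).

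Leaving out control replicate 1 gave log2 fold changes of 0.82 for Wnt6, 0.65 for Wnt5a and 0.33 for Wnt10a (edgeR adjusted p = 0.00399, 0.0447 and 0.0671). Wnt5a also passed without control replicate 2 (edgeR adjusted p = 0.0499). Wnt6 missed the threshold without control replicate 2 and when any single knockdown library was dropped (edgeR adjusted p = 0.0908 to 0.121), and with the replicate number as a block its adjusted p was 0.0601. Wnt6 and Wnt10a are neighbours on chromosome 1, both on the plus strand, with 6193 bases between the end of the first and the start of the second. The other 16 ligands were not tested: 8 had no count in any library (Wnt1, Wnt2, Wnt4, Wnt8a, Wnt9b, Wnt10b, Wnt11 and Wnt16) and 8 had a few (Wnt2b, Wnt3, Wnt3a, Wnt5b, Wnt7a, Wnt7b, Wnt8b and Wnt9a). None of these had more than 5 counts in a library or 15 over all 6. A count of 0 allows up to 3 counts, or 0.184 to 0.248 CPM depending on the library, and this limit covers counting error only.

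Among the Frizzled genes, which encode the membrane receptors for Wnt, 3 of the 7 tested rose and none fell. Fzd5 (ENSMUSG00000045005, chromosome 1, 64730558 to 64737751) went to 2.16 times and Fzd4 (ENSMUSG00000049791, chromosome 7, 89404366 to 89410110) to 2.74 times the control mean, while Fzd7 (ENSMUSG00000041075, chromosome 1, 59482424 to 59486955) reached 1.59 times. Fzd5 had 28.2, 29.3 and 29.3 CPM in shNC replicates 1 to 3 and 63, 62.9 and 61.2 CPM in shZfp207 replicates 1 to 3. Its libraries agreed closely within each group, including control replicate 1 (log2 fold change 1.11 with SE 0.0856, edgeR adjusted p = 0.00173). Fzd4 had 4.31, 12 and 9.03 CPM in the control libraries against 22.4, 22.9 and 24.5 CPM in the knockdown libraries. The knockdown libraries of Fzd4 lay close together and above all controls, the lowest being control replicate 1 (log2 fold change 1.45 with SE 0.329, edgeR adjusted p = 0.0256). Fzd7 had 27.7, 33 and 32.2 CPM in controls 1 to 3 and 50.9, 47.7 and 49.5 CPM after knockdown, again without overlap (log2 fold change 0.67 with SE 0.106, edgeR adjusted p = 0.00901).

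Fzd10, the most abundant receptor per length, had 68.2, 98.6 and 103 CPM in shNC replicates 1 to 3 and 119.6, 126 and 108 CPM in shZfp207 replicates 1 to 3. Its groups were separate, narrowly so between control replicate 3 and knockdown replicate 3, and the difference was not past the threshold (log2 fold change 0.39 with SE 0.167, edgeR adjusted p = 0.144). Fzd6, a receptor tied to planar cell polarity and next in abundance in control cells, had 33, 48.5 and 49 CPM in the control libraries against 44.6, 43.1 and 45 CPM in the knockdown libraries. The knockdown libraries of Fzd6 lay between control replicate 1 and the other controls (log2 fold change 0.02, 95% interval -0.37 to 0.41, edgeR adjusted p = 0.937). Fzd8 had 24.7, 17 and 18.4 CPM in controls 1 to 3 and 26, 21.3 and 21.1 CPM after knockdown, with control replicate 1 inside the knockdown range (log2 fold change 0.19 with SE 0.177, edgeR adjusted p = 0.489). Fzd1, the least abundant tested receptor, had 5.05, 4.61 and 4.54 CPM in the control libraries against 5.51, 4.48 and 6.35 CPM in the knockdown libraries and overlapped (log2 fold change 0.20 with SE 0.193, edgeR adjusted p = 0.497). Fzd2, Fzd3 and Fzd9 had no count in any library.

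When control replicate 1 was left out, Fzd4, Fzd5 and Fzd7 differed by 1.15, 1.09 and 0.60 (log2; edgeR adjusted p = 0.000536, 3.29e-05 and 0.000505), and Fzd10 and Fzd8 passed at 0.23 and 0.36 (edgeR adjusted p = 0.0308 and 0.0409). Fzd6 changed sign, to -0.14, short of the threshold (edgeR adjusted p = 0.102). Fzd1 stayed short of it at 0.25 (edgeR adjusted p = 0.301). Fzd4 missed it without control replicate 3 and when any single knockdown library was dropped (edgeR adjusted p = 0.0716 to 0.098). The call for Fzd7 was lost without knockdown replicate 1 or 3 (edgeR adjusted p = 0.0515 and 0.0561). In GENCODE M21 17.8% of the exonic length of Fzd5 overlaps the antisense gene Gm38058, which had 1 count in all libraries together.

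Neither coreceptor passed the threshold. Lrp6 had 188, 301 and 288 CPM in shNC replicates 1 to 3 and 323, 342 and 327 CPM in shZfp207 replicates 1 to 3, without overlap (log2 fold change 0.35 with SE 0.18, edgeR adjusted p = 0.207), and Lrp5 had 98.6, 165 and 166 CPM in controls 1 to 3 and 172, 167 and 162 CPM after knockdown, with overlap (log2 fold change 0.22 with SE 0.2, edgeR adjusted p = 0.475). In both genes control replicate 1 was far below the other libraries. Without it the difference was 0.17 for Lrp6 and 0.01 for Lrp5 (edgeR adjusted p = 0.0139 and 0.833), so that Lrp6 passed.

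Dvl2, which carries the signal from the receptor to the destruction complex, fell to 0.417 of its control level, while Dvl1 and Dvl3, its paralogs, did not pass the threshold. Dvl2 (ENSMUSG00000020888, chromosome 11, 70000595 to 70012301) had 62.1, 76.4 and 79.9 CPM in shNC replicates 1 to 3 and 31.1, 29.2 and 30.8 CPM in shZfp207 replicates 1 to 3. Every knockdown library was below every control library (72.8 ± 9.45 to 30.4 ± 1.02 CPM, SD, n = 3 each; log2 fold change -1.26 with SE 0.122, edgeR adjusted p = 0.003). Dvl1 had 48.3, 34.4 and 38.3 CPM in the control libraries against 45.8, 44.1 and 42.9 CPM in the knockdown libraries (log2 fold change 0.13 with SE 0.141, edgeR adjusted p = 0.537). Dvl3 had 12.8, 24.5 and 22.8 CPM in controls 1 to 3 and 19, 13.6 and 16.9 CPM after knockdown (log2 fold change -0.28 with SE 0.263, edgeR adjusted p = 0.489). Control replicate 1 was the highest of all libraries for Dvl1 and the lowest for Dvl3, and both genes overlapped between groups. The fit without control replicate 1 gave -1.36 for Dvl2, 0.28 for Dvl1 and -0.52 for Dvl3 (edgeR adjusted p = 1.65e-05, 0.0207 and 0.0195), all past the threshold. The exons of Dvl2 overlap those of Acadvl on the opposite strand over 18.3% of their length, and the sources used here give no strand setting for the counting. Acadvl had 790 to 1198 counts in control and 1186 to 1273 in knockdown libraries (log2 fold change 0.24, edgeR adjusted p = 0.125), and the part of shared reads in the difference of Dvl2 was not tested.

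Both Axin scaffolds of the destruction complex rose. Axin2 (ENSMUSG00000000142, chromosome 11, 108920349 to 108950783), which is also a widely used target gene of the pathway, had 134, 179 and 191 CPM in shNC replicates 1 to 3 and 321, 307 and 313 CPM in shZfp207 replicates 1 to 3. Its controls were lower in replicate 1 than in the other replicates, and all 3 lay well below the knockdown libraries (168 ± 30.02 to 314 ± 7.12 CPM, SD, n = 3 each; log2 fold change 0.90 with SE 0.143, edgeR adjusted p = 0.00909). Axin1 (ENSMUSG00000024182, chromosome 17, 26138688 to 26195811) had 104, 85.2 and 83.2 CPM in the control libraries against 128, 133 and 142 CPM in the knockdown libraries. Here control replicate 1 was the highest control, still below the knockdown libraries (log2 fold change 0.56 with SE 0.114, edgeR adjusted p = 0.018). Apc, the tumor suppressor that binds beta-catenin in the complex, had 10.7, 43 and 39.7 CPM in controls 1 to 3 and 55.9, 53.6 and 49.7 CPM after knockdown. Control replicate 1 of Apc was far below the other controls, and although the groups did not overlap the difference was not past the threshold (log2 fold change 0.76 with SE 0.454, edgeR adjusted p = 0.274). Gsk3b, the kinase that phosphorylates beta-catenin, had 68.7, 69.2 and 70.2 CPM in the control libraries against 75.6, 80.7 and 79.4 CPM in the knockdown libraries, close within each group and without overlap (log2 fold change 0.18 with SE 0.0806, edgeR adjusted p = 0.162).

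With control replicate 1 omitted, all 4 genes of the complex were past the threshold, with log2 fold changes of 0.76 for Axin2, 0.67 for Axin1, 0.36 for Apc and 0.17 for Gsk3b (edgeR adjusted p = 3.78e-05, 0.000139, 0.00802 and 0.0376). The call for Axin2 was narrowly lost without knockdown replicate 2 or 3 (edgeR adjusted p = 0.0503 and 0.0541). Axin1 passed in the fit without control replicate 1 but in none of the other 5 that left out 1 library (edgeR adjusted p = 0.0582 to 0.0901), nor with the replicate number as a block (edgeR adjusted p = 0.0644).

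Beta-catenin, the transducer that the destruction complex degrades, had less transcript after knockdown. Ctnnb1 (ENSMUSG00000006932, chromosome 9, 120929216 to 120960507) had 670.1, 681 and 691 CPM in shNC replicates 1 to 3 and 405, 452 and 432 CPM in shZfp207 replicates 1 to 3. The control libraries, replicate 1 included, differed little from each other, and all were above the knockdown libraries. The mean went from 681 ± 10.7 to 429.5 ± 23.1 CPM (SD, n = 3 each), to 0.631 of the control level (log2 fold change -0.66 with SE 0.0917, edgeR adjusted p = 0.00643). The value without control replicate 1 was -0.68 (edgeR adjusted p = 6.92e-05), and the call was lost only without knockdown replicate 3 (edgeR adjusted p = 0.052). The transcript level says nothing of the amount of protein, which the pathway regulates after translation. Ulk4, which overlaps 14.6% of the exonic length on the opposite strand, had 0 to 9 counts in a library.

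None of the TCF/LEF factors, the DNA-binding partners of beta-catenin, passed the threshold in the fit of all libraries. Tcf7, which made up 97.9% of the summed FPKM (counts per length and library total) of this family in control and 97.7% in knockdown cells, had 138, 163 and 165 CPM in the control libraries against 184, 181 and 193 CPM in the knockdown libraries. Its groups did not overlap (log2 fold change 0.26 with SE 0.101, edgeR adjusted p = 0.114). Tcf7l2 had 6.87, 16.3 and 13.5 CPM in controls 1 to 3 and 18, 19.5 and 18.3 CPM after knockdown and was lowest in control replicate 1 (log2 fold change 0.60 with SE 0.29, edgeR adjusted p = 0.188). Lef1 had 3.48, 3.92 and 4.24 CPM in the control libraries against 4.2, 4.88 and 4.28 CPM in the knockdown libraries, with overlap (log2 fold change 0.20 with SE 0.186, edgeR adjusted p = 0.495). Dropping control replicate 1 put Tcf7 and Tcf7l2 past the threshold at 0.18 and 0.32 (log2; edgeR adjusted p = 0.0128 and 0.0449), and Lef1 was at 0.12 (edgeR adjusted p = 0.557). Tcf7l1 summed to 4 counts in control and 0 in knockdown cells. Of the secreted antagonists, Dkk1 and Sfrp1 had no count, and Dkk3 summed to 1 count in control and 4 in knockdown cells.

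Of the 4 genes that tune the receptors at the cell surface, Lgr5 and Rnf43 rose, and Lgr4 and Znrf3 did not pass the threshold. Lgr4 and Lgr5 are receptors for R-spondins, and Rnf43 and Znrf3 are the membrane ubiquitin ligases that R-spondins hold off and that remove Frizzled from the surface. Rnf43 (ENSMUSG00000034177, chromosome 11, 87662722 to 87735539) rose to 2.22 times its control level, with 30.3, 26.4 and 29 CPM in shNC replicates 1 to 3 and 63.1, 66.3 and 60.4 CPM in shZfp207 replicates 1 to 3. Each group was tight and control replicate 1 was no exception (log2 fold change 1.15 with SE 0.0998, edgeR adjusted p = 0.00236). Znrf3 had 52.3, 37.3 and 47 CPM in the control libraries against 85.3, 54.8 and 86.8 CPM in the knockdown libraries. The knockdown libraries of Znrf3 were uneven, replicate 2 being far below the others, but there was no overlap with the controls (log2 fold change 0.73 with SE 0.212, edgeR adjusted p = 0.0527). Lgr5 (ENSMUSG00000020140, chromosome 10, 115450311 to 115587780), a target gene best known as a stem cell marker in the intestine, had 21.1, 33.5 and 32 CPM in controls 1 to 3 and 53.4, 57.6 and 53 CPM after knockdown and no overlap (log2 fold change 0.92 with SE 0.182, edgeR adjusted p = 0.0171). Lgr4 had 22.5, 22.4 and 21.4 CPM in the control libraries against 28, 27.1 and 26.8 CPM in the knockdown libraries, separate but not past the threshold (log2 fold change 0.30 with SE 0.0967, edgeR adjusted p = 0.0694).

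Nkd1, a target gene whose product binds Dishevelled and dampens the signal, rose to 2.73 times its control level. Nkd1 (ENSMUSG00000031661, chromosome 8, 88521344 to 88594887) had 30.7, 56.6 and 67.6 CPM in shNC replicates 1 to 3 and 147, 137 and 139 CPM in shZfp207 replicates 1 to 3. The controls were spread widely, with replicate 1 lowest, and the knockdown libraries lay well above them (51.6 ± 18.9 to 141 ± 5.44 CPM, SD, n = 3 each; log2 fold change 1.45 with SE 0.269, edgeR adjusted p = 0.0141). In the fit without control replicate 1 the log2 fold changes were 1.18 for Nkd1, 1.19 for Rnf43, 0.84 for Znrf3, 0.74 for Lgr5 and 0.32 for Lgr4 (edgeR adjusted p = 6.15e-05, 5.06e-05, 0.0134, 0.000247 and 0.0149). Znrf3 also passed without knockdown replicate 2 (edgeR adjusted p = 0.0465) and with the replicate number as a block (edgeR adjusted p = 0.0397). The calls for Nkd1 and Lgr5 were lost when any 1 knockdown library was left out (edgeR adjusted p = 0.0624 to 0.0626 for Nkd1 and 0.0682 to 0.0788 for Lgr5).

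Compared per length, the members differed widely in level. In control cells Ctnnb1 (69.5 FPKM) and Tcf7 (46.4 FPKM) were the most abundant, each with a library range that did not overlap the next, and were followed by Fzd10, Axin2 and Axin1 (27.6, 19.6 and 17.7 FPKM), whose ranges overlapped. With control replicate 1 left out the control means of these were 69.8, 48.8, 30.9, 21.5 and 16.3 FPKM, and Lrp6 (18.8 FPKM) came before Axin1. In the remaining controls the ranges of Fzd10, Axin2, Lrp6 and Axin1 did not overlap from each to the next. After knockdown Tcf7 (55.2 FPKM) stood above Ctnnb1 (43.4 FPKM), and Axin2, Fzd10 and Nkd1 followed with 36.2, 36 and 31.4 FPKM, with ranges that overlapped from each to the next of these 3. Tcf7l2 and Lef1 were the lowest tested members in both groups, at 0.556 and 0.42 FPKM in control and 0.841 and 0.478 FPKM in knockdown cells.

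Summed over a family, ligand, Frizzled and Axin transcript was higher and Dishevelled transcript lower after knockdown, each without overlap between groups. The Wnt ligands summed to 7.23, 12.6 and 13.2 FPKM in the control and 20.1, 20.5 and 19.3 FPKM in the knockdown libraries. The Frizzleds summed to 47.9, 61.2 and 62.2 FPKM in the control and 80.1, 78.6 and 74.7 FPKM in the knockdown libraries (57.1 ± 7.97 and 77.8 ± 2.81, SD, n = 3 each), so that control replicate 1 was the lowest. The Axins summed to 36.1, 37.2 and 38.4 FPKM in the control and 62.1, 60.9 and 63.2 FPKM in the knockdown libraries, close within each group. The Dishevelleds summed to 13.2, 15 and 15.6 FPKM in the control and 10.2, 9.01 and 9.51 FPKM in the knockdown libraries. Within the Dishevelled sum, the share of Dvl2 was 53.9%, 57.4% and 58.1% in the control and 34.6%, 36.5% and 36.3% in the knockdown libraries, and Dvl1, at 32.5%, 20% and 21.6% in the control libraries, became the largest contributor with 39.4%, 42.7% and 39.2%. Fzd10 had the largest share of the Frizzled sum in each library, 44.2% to 50.7% in control and 44% to 48.7% after knockdown. Fzd4 made up 2.46%, 5.31% and 3.93% of it in the control and 7.59%, 7.83% and 8.8% in the knockdown libraries. Fzd6 made up 16.4%, 18.6% and 18.6% and then 13.1%, 12.8% and 14.1%, again without overlap. The share of Axin2 in the Axin sum was 43.7%, 55.8% and 57.9% in control replicates 1 to 3 and 57% to 60% after knockdown, so that the groups overlapped.

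**Figure D3:**
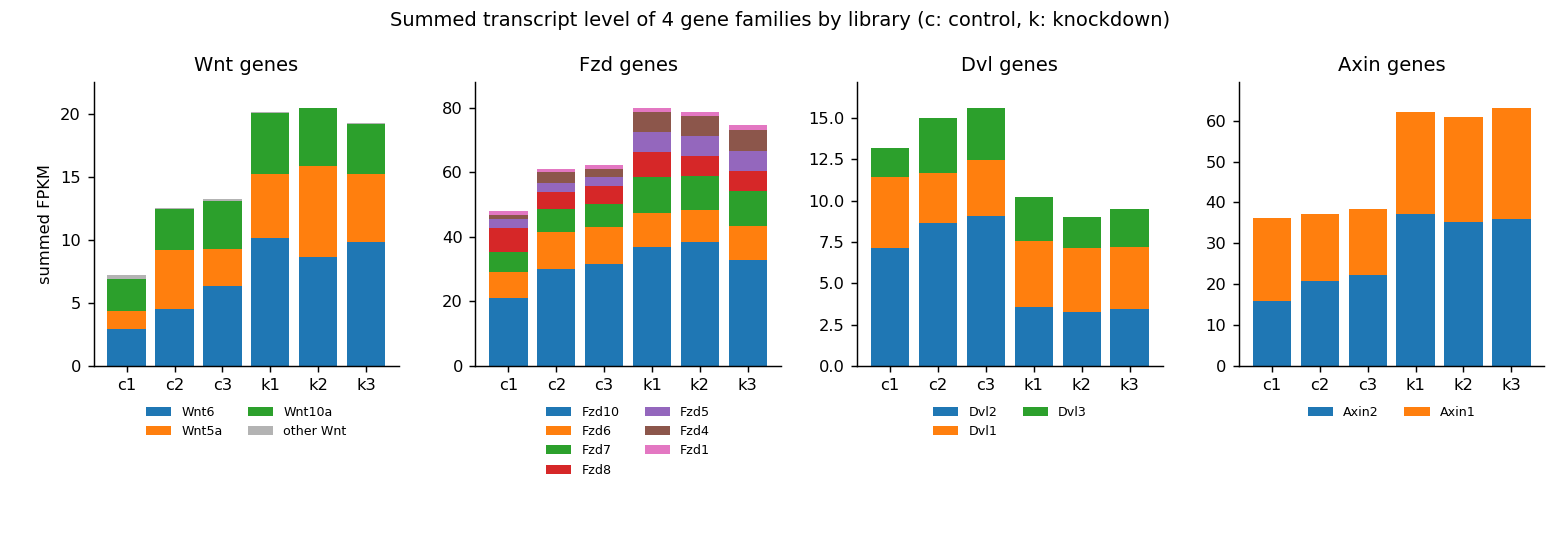
Stacked FPKM of the genes of the Wnt, Frizzled, Dishevelled and Axin families in each of the 6 libraries (c, control; k, knockdown), with a colour per gene. The Dishevelled stacks are lower after knockdown, with a smaller part from Dvl2, and the Wnt, Frizzled and Axin stacks are higher.

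How far control replicate 1 enters these values differed between members. It was the lowest of the 6 libraries for 19 of 28 tested members (67.9%), against 30.2% of all tested genes, and the highest for Dvl1. For 15 of 28 members it lay farther from controls 2 and 3 than the knockdown mean did. The largest gaps on the log2 scale were -1.95 for Apc, -1.46 for Wnt5a, -1.27 for Fzd4, -1.11 for Tcf7l2 and -1.01 for Nkd1. For Fzd5, Ctnnb1, Lgr4 and Gsk3b the gaps were -0.06, -0.03, 0.04 and -0.02. The median log2 fold change of the members without it was 0.33, against 0.01 over all genes tested. The part of the state of control replicate 1 in the differences of the fit of all libraries was not tested beyond this.

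**Figure D4:**
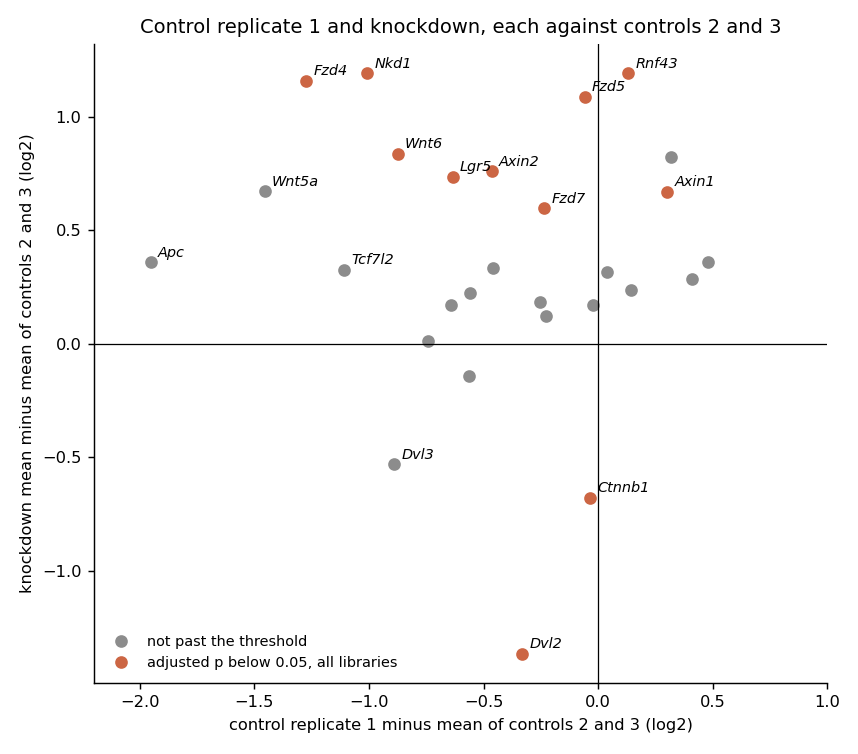
Each point is a tested member, with the log2 difference of control replicate 1 from the mean of control replicates 2 and 3 on the horizontal axis and that of the knockdown mean from the same 2 libraries on the vertical axis. Apc and Wnt5a lie farthest to the left, and Fzd5, Rnf43 and Ctnnb1 lie near the vertical line at 0 with large knockdown differences.

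Further genes of the pathway were taken as 7 lists by function. Their shares of called genes are read against the 20.6% of all genes tested. Among ligand processing factors and secreted modulators, 1 of 8 tested rose and 1 fell (25%), of 29 listed, which is near that share: Gpc4, a cell surface glypican, went from 25.2 ± 3.6 to 47.6 ± 2.6 CPM (log2 fold change 0.92 with SE 0.133, edgeR adjusted p = 0.00697; 0.80 without control replicate 1), and Tspan12, a tetraspanin that works with Fzd4, from 282 ± 23.2 to 175 ± 6.9 CPM (log2 fold change -0.69 with SE 0.0968, edgeR adjusted p = 0.00662; -0.62 without control replicate 1). Of the alternative receptors and planar polarity genes 17 of 26 were tested, and 2 rose and 2 fell (23.5%), also near the share of all genes. Ror1, a receptor tyrosine kinase that binds Wnt5a, went from 1.47 ± 0.73 to 5.45 ± 0.184 CPM (log2 fold change 1.86 with SE 0.372, edgeR adjusted p = 0.0175; 1.54 without control replicate 1). Dact2, which binds Dishevelled, and Prickle1, a planar polarity protein, had log2 fold changes of -0.96 and -0.58 and so fell (edgeR adjusted p = 0.0067 and 0.0128; -0.92 and -0.54 without control replicate 1).

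Of the destruction complex partners 23 of 26 were tested and 2 rose, a share of 8.7% that is below the 20.6% of all genes. They were Fbxw11, a ubiquitin ligase subunit for phosphorylated beta-catenin, from 159 ± 2.04 to 245 ± 7.9 CPM (log2 fold change 0.63 with SE 0.0797, edgeR adjusted p = 0.00523; 0.62 without control replicate 1), and the casein kinase Csnk1d (log2 fold change 0.39 with SE 0.0916, edgeR adjusted p = 0.0289; 0.43 without control replicate 1). Of 22 nuclear coactivators and corepressors, all tested, 3 rose and 2 fell, which is close to the background share. Bcl9, the adaptor that joins beta-catenin to Pygopus, went from 23.9 ± 1.06 to 42.9 ± 1.37 CPM (log2 fold change 0.85 with SE 0.0954, edgeR adjusted p = 0.00397; 0.85 without control replicate 1), and the kinase Hipk2 from 6.58 ± 2.63 to 23.4 ± 2.28 CPM (log2 fold change 1.82 with SE 0.296, edgeR adjusted p = 0.00968; 1.54 without control replicate 1). Pygo1, a Pygopus, went from 1.86 ± 0.488 to 0.382 ± 0.176 CPM (log2 fold change -2.26 with SE 0.434, edgeR adjusted p = 0.0155; -2.12 without control replicate 1), and the corepressor Tle2 fell as well, with a log2 fold change of -1.43 (edgeR adjusted p = 0.0312; -1.02 without control replicate 1). The fifth, the acetyltransferase Crebbp, was added after its values were seen (log2 fold change 0.32 with SE 0.0912, edgeR adjusted p = 0.0499; 0.35 without control replicate 1).

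Target genes known from other tissues moved in both directions: of 25 listed, 17 were tested, and 2 rose and 4 fell (35.3%), where 9.92% of all genes rose and 10.7% fell. Tnfrsf19, a receptor of the TNF family, went from 4.64 ± 0.665 to 13.3 ± 0.433 CPM (log2 fold change 1.51 with SE 0.156, edgeR adjusted p = 0.00342; 1.40 without control replicate 1), and the growth factor receptor Met also rose (log2 fold change 0.47 with SE 0.0951, edgeR adjusted p = 0.0181; 0.42 without control replicate 1). The transcription regulators Sox4 and Id2 fell, with log2 fold changes of -0.47 and -0.48 (edgeR adjusted p = 0.0161 and 0.0172; -0.41 and -0.41 without control replicate 1). Named after their values were seen, the other two that fell were the AP-1 member Fosl1 and the angiogenic factor Vegfa, at -0.64 and -0.38 (edgeR adjusted p = 0.022 and 0.026; -0.76 and -0.34 without control replicate 1). Of the genes that mark hepatocytes around the central vein only 6 of 11 were tested, a small number to read a share from. Past the threshold 3 rose and none fell (50%, against 20.6% of all genes, 9.92% upwards and 10.7% downwards). These were the transcription factor Tbx3, from 49.7 ± 9.02 to 107 ± 3.75 CPM (log2 fold change 1.10 with SE 0.146, edgeR adjusted p = 0.00592; 0.96 without control replicate 1), the secreted protein Lect2 (log2 fold change 0.72 with SE 0.19, edgeR adjusted p = 0.0405; 0.94 without control replicate 1) and Glul, the glutamine synthetase, from 288 ± 29.3 to 377 ± 7.79 CPM (log2 fold change 0.39 with SE 0.104, edgeR adjusted p = 0.0421; 0.31 without control replicate 1). Named after their values were seen, the other 3 tested, Oat, Slc1a2 and Nr1i3, did not pass. Their log2 fold changes were -0.08, -0.12 and -0.51, and -0.08, 0.17 and -0.33 without control replicate 1. Among those not tested in the fit of all libraries, Cyp2e1 had no count and Cyp1a2 had 4 to 13 counts in a library. Of the genes around the portal vein 3 of 8 were tested, too few to read a share from, and Ass1, a urea cycle enzyme, was the 1 that fell, from 9.47 ± 2.99 to 2.46 ± 0.325 CPM (log2 fold change -1.94 with SE 0.273, edgeR adjusted p = 0.00666; -1.66 without control replicate 1). The summed hepatocyte and hepatoma markers were also higher in the knockdown libraries, as given above, and their part in this was not tested.

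Without control replicate 1, the numbers past the threshold (higher and lower) were 2 and 3 of 8 for modulators, 4 and 2 of 17 for alternative receptors, 8 and 5 of 24 for destruction complex partners, 8 and 7 of 22 for nuclear factors, 5 and 10 of 17 for general targets, 3 and 0 of 7 for genes of the central vein and 0 and 1 of 3 for those of the portal vein. Against the 52.1% of all genes called in that fit, the members' share was 82.1%. Above it were also general targets (88.2%, mostly downwards), nuclear factors (68.2%) and, closely, destruction complex partners (54.2%), and below it were alternative receptors (35.3%). The shares of modulators (62.5%), genes of the central vein (42.9%) and genes of the portal vein (33.3%) came from 8, 7 and 3 tested genes. Those are too few to place these lists above or below the share of all genes. Each gene named from these lists as risen or fallen was past the threshold in that fit, in the same direction. Gpc4, Tspan12, Dact2, Fbxw11, Bcl9, Tnfrsf19, Tbx3 and Ass1 were past it in all 6 fits that left out 1 library, whereas Csnk1d, Crebbp, Fosl1, Vegfa, Lect2 and Glul passed only without control replicate 1, with adjusted p up to 0.139, 0.176, 0.104, 0.129, 0.145 and 0.165 in the other edgeR fits. The others named as risen or fallen lost the call in 2 to 4 of the 6 fits.

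**Figure D5:**
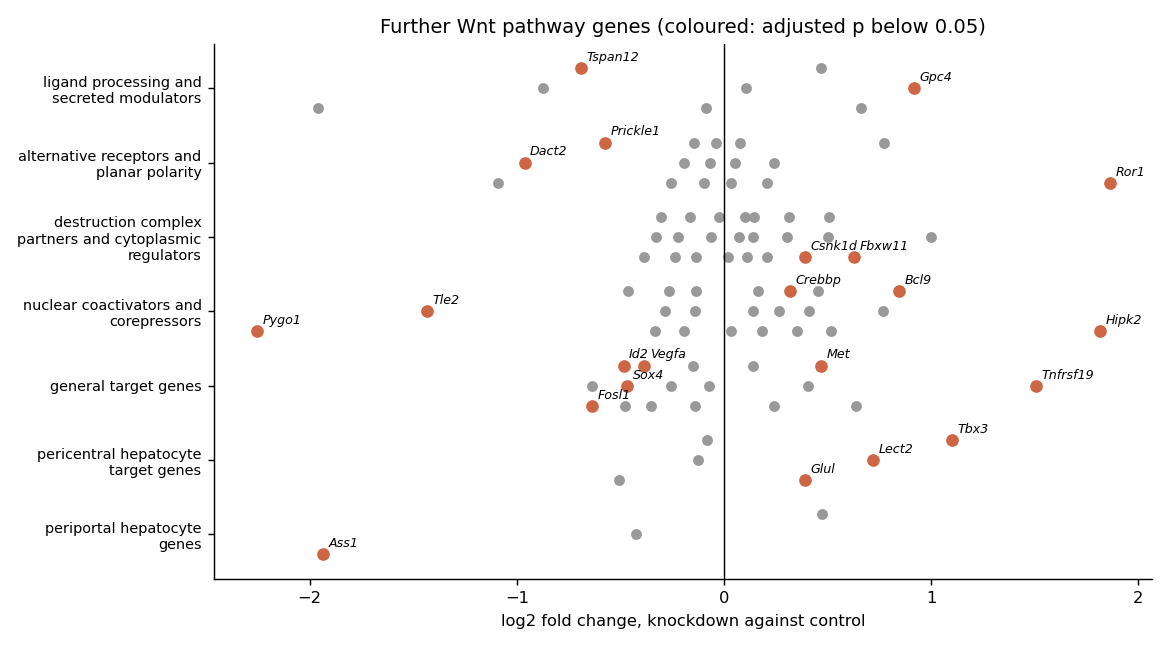
Log2 fold change of the tested genes in the 7 further lists, apart from 1 alternative receptor and polarity gene, with genes past the threshold coloured and named. Coloured genes lie on both sides of 0 in 4 lists, on the right only for destruction complex partners and pericentral genes, and on the left only for the periportal list.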

How the data were processed

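The authors deposited 2 tables of 34718 genes, 1 with raw read counts as whole numbers and 1 with FPKM. Named in the submitters' processing notes, without roles, are mm10, featureCounts 1.5.0-p3 and HISAT2 2.0.5. The sources used here give no annotation or strand setting. Over 7328 genes with many counts, the length implied by the deposited counts and FPKM agreed between libraries within 0.0218%, so FPKM is scaled to the library total only. Levels between genes are compared in FPKM.

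Counts were tested with edgeR 4.0.16 (R 4.3.3): filterByExpr on the groups, which left 11975 genes (16424 had no count), TMM scaling, and the two-sided quasi-likelihood test with group as the only term over all 6 libraries. P-values were adjusted by Benjamini-Hochberg over all genes tested, with a threshold of 0.05. CPM values are TMM-scaled. The fit was tested on simulated counts in which no library stood apart, so that test does not cover the state of control replicate 1. Alternatives were RLE and upper-quartile scaling, every gene with at least 1 count, at least 1 CPM in 3 libraries, DESeq2 1.42.0, limma 3.58.1 on log2(FPKM + 1), the replicate number as a block, and each library left out. Depth ranged from 11933736 to 16248346 counts, and limits from counts of 0 cover counting error only.

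The members and the further lists were chosen with earlier results of these data known. Values are given in full for members past the threshold in the fit of all libraries or with any 1 left out and for the most abundant of each role, and for up to 4 genes with the smallest p past the threshold in each further list. Gene coordinates are those of the deposited table; strand and overlap come from GENCODE M21, on the assembly that mm10 denotes. 1 gene that this rule selects is not reported here.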

Additional observations from a re-analysis of the deposited data

How the results depend on the processing

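Most member values kept their direction and side of the threshold: over the 28 tested members and 13 alternatives, 317 values did so, 26 fell short of the threshold, 19 passed it anew and 2 changed sign. Both sign changes were of Fzd6, to -0.032 with upper-quartile scaling and -0.14 without control replicate 1, and its values with 1 library left out ran from -0.14 to 0.12. The 11 called members were all called with RLE and upper-quartile scaling, both other filters, DESeq2, limma on log2(FPKM + 1) and without control replicate 1. Without control replicate 2 or 3, 9 of them were called, and without knockdown replicate 1, 2 or 3, 5, 5 and 3. With 1 library left out each, members past the threshold numbered 2 to 20 higher and 1 to 3 lower, the median log2 fold change of the members was 0.33 to 0.50, and 534 to 6313 of all genes passed. For the further lists the same fits gave 2 to 5 for modulators, 1 to 6 for alternative receptors, 1 to 13 for destruction complex partners, 1 to 15 for nuclear factors, 1 to 15 for general targets, 1 to 3 for pericentral and 1 for periportal genes. DESeq2 called 5 destruction complex partners and 9 nuclear factors, and limma on FPKM called 4 modulators and 3 nuclear factors. With the replicate number as a block, 987 genes passed in all, and 2 alternative receptors, 3 nuclear factors, 1 general target and 1 pericentral gene. That block kept 9 of the 11 members, losing Wnt6 and Axin1, and added Znrf3. Same-numbered samples deviated from their group means with correlations of 0.00449, 0.023 and 0.046, so the numbers were not taken to pair samples. Not every sample correlated best with its own number: control replicate 1 did so with knockdown replicate 2, at 0.0107. The cause of these changes was not tested. Scaling moved the median log2 fold change of all genes from -0.03 to -0.09 at most. Depth limits the 23 untested members, none with more than 5 counts in a library.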
